A study of Mus musculus with 2 samples.

Results

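The genes described here are 9 genes that mark pituitary lineages other than the gonadotrope: the transcription factor genes Pou1f1, Tbx19, Hesx1 and Neurod1, the hormone genes Pomc, Gh, Prl and Tshb, and the receptor gene Ghrhr. They were taken as a fixed list of 9 among 21951 protein-coding genes of GENCODE vM21, and every ATAC-seq peak with its summit in the gene body or within 100 kb of either end of the gene was assigned to that gene's window. The windows held 44 of the 58519 peaks of replicate 1 and 57 of the 64984 peaks of replicate 2. Both libraries came from LβT2 cells at passage 21, an immortalized mouse line with gonadotrope properties. The line arose from a pituitary tumor in mice carrying a viral T antigen under the regulatory region of rat Lhb. The cells of both libraries had received GnRH at 2 nM in 4 pulses, 1 every 2 h over 6 h and 45 min. They were harvested 45 min after the last pulse, with 4500 cells in each transposase reaction. All samples thus belong to 1 condition, n = 2, and no untreated library was analysed here. The labels do not say that the replicates were separate cultures, so the spread between them may be technical.

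The anterior pituitary holds several hormone-producing cell types that arise from a common primordium, and each of them depends on lineage-restricted transcription factors. Pou1f1 (PIT-1) is required for somatotropes, lactotropes and thyrotropes and acts on the Gh, Prl and Tshb promoters, whereas Tbx19 (TPIT) and Neurod1 act on Pomc in corticotropes, and Hesx1 encodes a homeodomain repressor of the early primordium. ATAC-seq marks DNA that the Tn5 transposase can reach, such as active promoters and enhancers, and does not measure transcription.

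The size of each peak is given as the tags at its summit (reads extended to a fixed length), solved from the deposited fold enrichment and p-value, and as the −log10 of its q-value. The expected background was 3.05 tags in replicate 1 and 3.54 in replicate 2. The lowest listed summit held 10 and 11 tags, and the median summit 14 and 16. A region without a peak is thus one in which no summit passed the authors' calling threshold at this depth. That threshold depends on the background, into which the authors' genome size preset enters. The preset given is the one for the fly genome, although the reads are from mouse. A smaller genome size raises the expected background and lowers the fold and −log10 q, so that fewer weak peaks are listed. Whether the preset was used as written is not known here. A summit was called single-copy where its central 50 bp occurred at 1 place of the GRCm38 genome. Single-copy summits made up 33.1% and 38.8% of all summits with a counted copy number, and 72.7% (32 of 44) and 82.5% (47 of 57) of those in the 9 windows.

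The sequences below are those on which the description of these genes turns. The first 5 show the group of peaks around Hesx1, from the weak peak at its upstream start site to the intergenic peaks found in both replicates. They lie on the plus strand of GRCm38 at chr14:26994250-26994415, chr14:26975519-26975719, chr14:26976408-26976608, chr14:26979965-26980165 and chr14:27006124-27006324. Each covers 100 bp on both sides of the summit of replicate 2, except that the first ends at the base before the start site. Capitals mark matches to the motifs counted further on. Distances, here and throughout, are from the gene's nearest annotated start site.
Hesx1 upstream start site: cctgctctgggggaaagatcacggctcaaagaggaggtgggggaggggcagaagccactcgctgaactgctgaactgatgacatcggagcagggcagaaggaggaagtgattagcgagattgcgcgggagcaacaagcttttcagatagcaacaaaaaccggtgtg
Hesx1 18.8 kb upstream: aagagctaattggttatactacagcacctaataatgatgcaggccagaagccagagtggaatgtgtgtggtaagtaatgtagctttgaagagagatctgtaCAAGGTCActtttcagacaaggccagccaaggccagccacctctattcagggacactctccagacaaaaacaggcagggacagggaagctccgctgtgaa
Hesx1 17.9 kb upstream: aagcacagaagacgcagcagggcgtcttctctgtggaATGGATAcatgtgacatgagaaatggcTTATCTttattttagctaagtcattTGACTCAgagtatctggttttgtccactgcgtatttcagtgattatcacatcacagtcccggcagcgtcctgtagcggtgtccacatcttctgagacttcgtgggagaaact
Hesx1 14.4 kb upstream: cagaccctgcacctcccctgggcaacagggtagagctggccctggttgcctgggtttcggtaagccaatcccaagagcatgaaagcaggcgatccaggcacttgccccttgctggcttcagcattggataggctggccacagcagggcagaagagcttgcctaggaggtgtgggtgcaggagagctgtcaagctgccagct
Hesx1 5.86 kb downstream: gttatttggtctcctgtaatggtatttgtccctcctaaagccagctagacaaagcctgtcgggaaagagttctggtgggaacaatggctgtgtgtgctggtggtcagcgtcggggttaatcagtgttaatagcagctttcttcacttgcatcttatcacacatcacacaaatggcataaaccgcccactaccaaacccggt

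A further 4 sequences show peaks in the windows of Ghrhr, Tbx19 and Tshb that were single-copy, away from promoters and present in both replicates. They were read in the same way at chr6:55388868-55389068, chr1:165046621-165046821, chr1:165043434-165043634 and chr3:102752162-102752362. The Ghrhr sequence is shown because its summit is the nearest to that gene. The last sequence is the 50 bp at the summit 88.2 kb upstream of Pou1f1, at chr16:65432272-65432321, shown because it is repeated in the genome.
Ghrhr 12.6 kb downstream: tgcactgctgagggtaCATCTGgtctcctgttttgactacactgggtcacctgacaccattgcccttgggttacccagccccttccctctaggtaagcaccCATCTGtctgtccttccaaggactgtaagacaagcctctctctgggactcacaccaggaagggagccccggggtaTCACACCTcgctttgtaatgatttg
Tbx19 103 kb downstream: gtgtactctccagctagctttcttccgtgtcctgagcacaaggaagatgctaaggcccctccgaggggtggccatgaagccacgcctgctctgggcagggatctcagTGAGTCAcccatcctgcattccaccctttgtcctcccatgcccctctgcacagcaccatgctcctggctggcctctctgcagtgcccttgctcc
Tbx19 106 kb downstream: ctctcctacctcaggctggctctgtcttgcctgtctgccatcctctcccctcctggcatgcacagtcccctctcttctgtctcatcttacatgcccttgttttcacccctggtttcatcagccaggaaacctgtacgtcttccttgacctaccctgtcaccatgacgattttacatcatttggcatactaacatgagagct
Tshb 27.6 kb downstream: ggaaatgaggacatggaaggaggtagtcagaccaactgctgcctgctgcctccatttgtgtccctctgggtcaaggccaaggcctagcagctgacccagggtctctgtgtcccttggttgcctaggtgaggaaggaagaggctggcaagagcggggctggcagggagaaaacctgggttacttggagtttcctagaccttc
Pou1f1 88.2 kb upstream: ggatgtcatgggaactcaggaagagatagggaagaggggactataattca

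Of the 9 genes, 8 had no peak at any of their promoters in either replicate, with a promoter taken as 1 kb on both sides of any annotated transcription start site (TSS). Replicate 1 showed a promoter peak at 0 of the 9 and replicate 2 at 1, Hesx1. Over all protein-coding genes, 32.3% had a promoter peak in replicate 1, 44.4% in replicate 2 and 30.8% in both. The promoters of the 4 hormone genes, of Pou1f1, Tbx19 and Neurod1, and of Ghrhr were without a listed peak. Promoters poor in CpG dinucleotides had fewer peaks throughout the genome. By the ratio of observed to expected CpG within 500 bp of the TSS, 8 of the 9 genes were CpG-poor (below 0.6), with Neurod1 the exception at 0.679, whereas 47.5% of all protein-coding genes were. Among CpG-poor genes, 12.5% had a promoter peak in replicate 1 and 16.3% in replicate 2, a background that was added after seeing the data. The counts of 0 and 1 among 9 genes lie near that background.

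**Figure D1:**
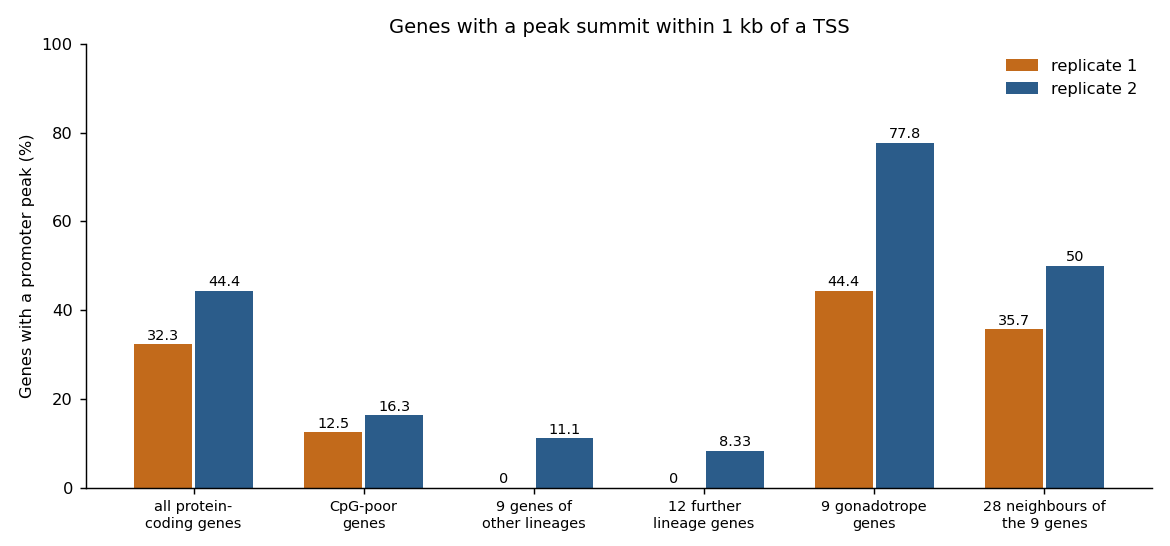
Percentage of genes with a peak summit within 1 kb of a TSS (vertical axis) in replicate 1 (orange bars) and replicate 2 (blue bars), for all protein-coding genes, CpG-poor genes and 4 lists. The 9 genes of other lineages have 0 and 1 such genes, and the 9 gonadotrope genes 4 and 7.

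Other genes of the same lineages gave like counts. Of 12 further genes, namely Ghsr, Drd2, Trhr, Dio2, Crhr1, Avpr1b, Pax7, Oacyl, Sox2, Sox9, Lhx4 and S100b, replicate 1 showed a promoter peak at 0 and replicate 2 at 1. This was Lhx4, a LIM homeobox gene of the pituitary primordium, with 15 tags. Read by lineage, 0 of 4 somatotrope, 0 of 3 lactotrope, 0 of 4 thyrotrope, 0 of 5 corticotrope and 0 of 4 melanotrope markers had a promoter peak in either replicate, and neither did S100b of folliculostellate cells. Of 4 progenitor markers, 0 had one in replicate 1 and 2, Hesx1 and Lhx4, in replicate 2. These counts hold for the marker lists as set. Pou1f1 stood under several lineages, whereas Cga and Gata2 stood under the gonadotrope only, whether or not other lineages use them. Of 9 gonadotrope genes, by contrast, 4 had a promoter peak in replicate 1 and 7 in replicate 2, and the 4 of replicate 1 were among the 7. These were Lhb, Cga, Gnrhr and Nr0b1, while Nr5a1, Foxl2 and Gata2 had one in replicate 2 only, and Fshb and Pitx1 in neither. The highest promoter peaks of Nr5a1, Foxl2 and Gata2 had 17, 14 and 15 tags, near those of Lhx4 and Hesx1 with 15 and 13. That of Nr0b1 had 11 tags in replicate 1 and 26 in replicate 2. Those of Lhb, Cga and Gnrhr had 49, 25 and 22 tags in replicate 1 and 70, 50 and 33 in replicate 2. Of the gonadotrope genes 5 were CpG-poor as well, and 4 of those 5, all but Fshb, had a promoter peak in both replicates. Of the 12 further lineage genes 5 were CpG-poor, and none of these had one. The rest were not CpG-poor, and only Lhx4 among them had one, in replicate 2 alone. Over all protein-coding genes the share was 32.3% in replicate 1 and 44.4% in replicate 2. The lists are short and were compared as counts, without a test. They were also chosen with earlier results of these data known. The authors had already reported accessible promoters at Lhb, Cga and Gnrhr, and none at Tshb, so the contrast was partly known in advance.

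The nearest peak to the TSS lay a median of 16.7 kb away in replicate 1 and 18.2 kb in replicate 2 for the 9 genes, against 11.9 kb and 4.01 kb for all protein-coding genes and 1.11 kb and 0.282 kb for the 9 gonadotrope genes. For the 12 further lineage genes it was 59.1 kb and 48.3 kb. Hesx1 had the nearest peak of the 9 genes in both replicates, at 1.91 kb and 0.066 kb. Pomc had the most distant in replicate 1, at 128 kb, and Pou1f1 in replicate 2, at 39.5 kb. For Pou1f1, Gh, Prl, Tshb and Ghrhr, the distances in both replicates lay within 2 kb of each other. It differed for Pomc, at 128 and 18.2 kb, for Neurod1, at 16.3 and 2.24 kb, and for Tbx19, at 16.7 and 33.5 kb.

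Apart from the Hesx1 promoter peak of replicate 2, the peaks of the windows were classed as distal or at promoters of other genes. In replicate 1, 0 summits lay at a promoter of the 9 genes, 12 at the promoter of another gene, 12 in the body of another gene and 20 in intergenic DNA. In replicate 2, 1 lay at a promoter of the 9 genes, 16 at the promoter of another gene, 19 in the body of another gene and 21 in intergenic DNA. No summit was assigned to an intron or exon of any of the 9 genes. A summit lay between the ends of 1 of the 9 genes, Neurod1, in replicate 2 and of 0 in replicate 1, while 32.1% and 40.3% of all protein-coding genes had a summit in the gene body. The 2 Neurod1 summits fell in its exon and also within 1 kb of the TSS of the antisense lincRNA Gm26755, so they were counted with that promoter. At least 1 peak outside the promoters of other genes was present for 7 of the 9 genes in replicate 1 and for all 9 in replicate 2, against 83.9% and 90.3% of all protein-coding genes. The exceptions in replicate 1 were Pou1f1 and Pomc.

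**Figure D2:**
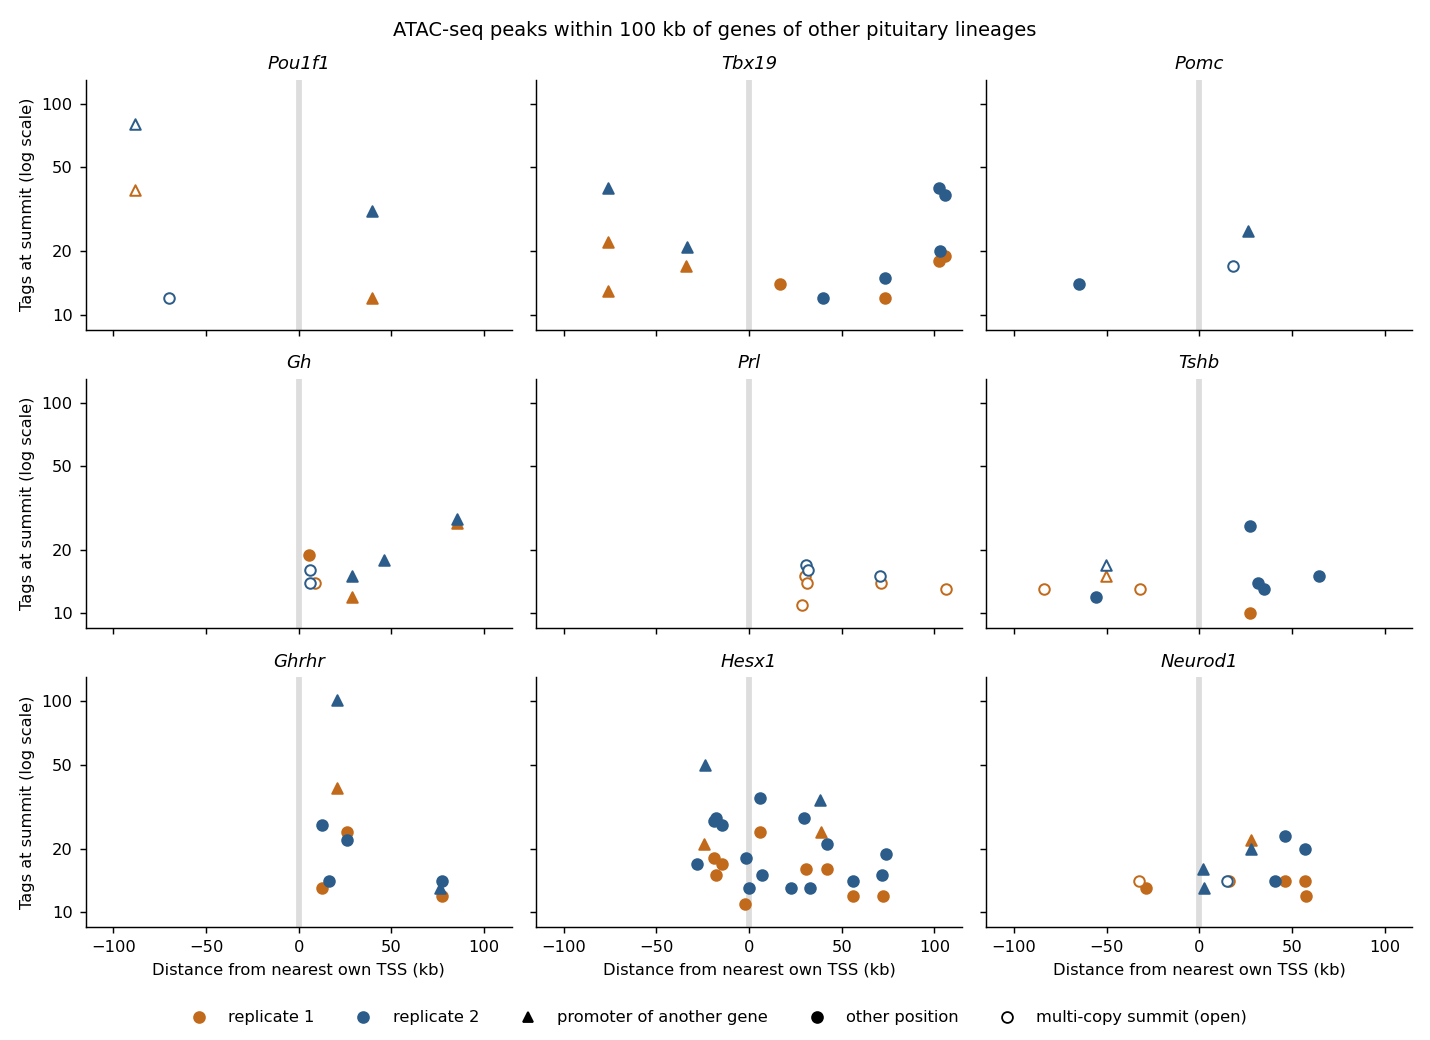
Tags at each summit (vertical axis, log scale) against its distance from the nearest TSS of the gene in kb (horizontal axis; positive is downstream), for replicate 1 (orange) and replicate 2 (blue). Triangles are summits at the promoter of another gene, circles are other positions, open symbols are multi-copy summits, and the grey band is the promoter within 1 kb. The band holds 1 summit in all, that of Hesx1 in replicate 2.

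The median number of peaks in a window was 4 in replicate 1 and 6 in replicate 2, for the 9 genes and for all protein-coding genes alike. Replicate 1 had between 0 and 11 peaks for each of the 9 genes, and replicate 2 between 3 and 17. Hesx1 had the most in both replicates, with 11 and 17 peaks, and 89.8% and 95.5% of all protein-coding genes had fewer. Tbx19 and Neurod1 followed with 7 and 7 each. Pomc had 0 and 3 peaks, and a window without any peak was found for 6.68% of protein-coding genes in replicate 1 and for 3.24% in replicate 2.

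**Figure D3:**
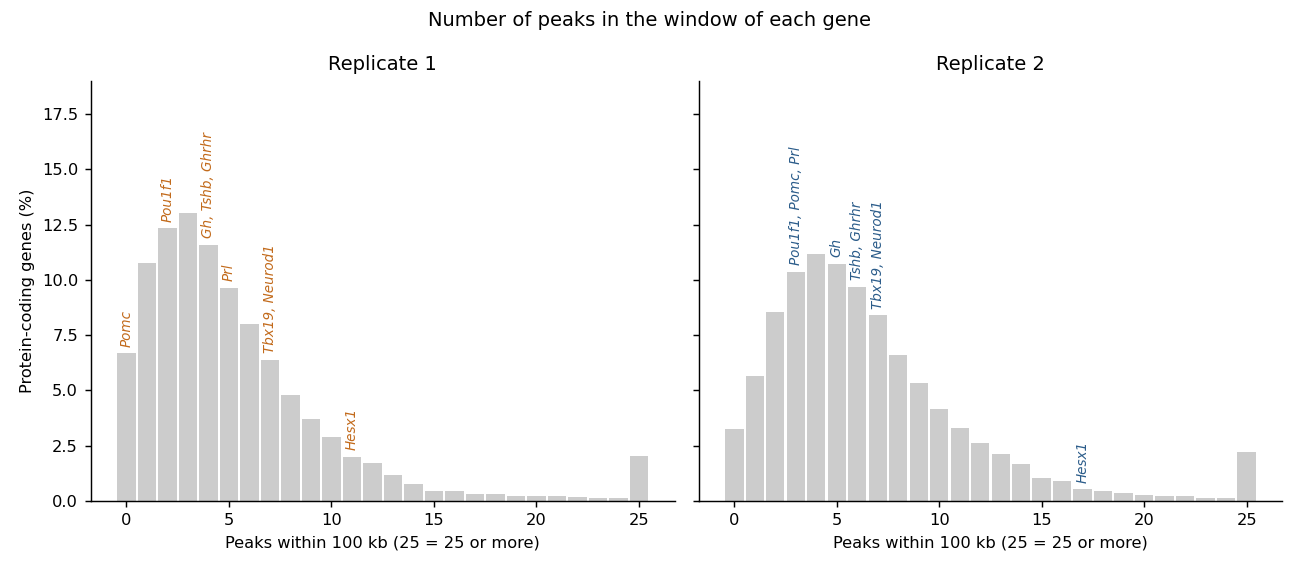
Share of protein-coding genes (vertical axis, %) by the number of peaks in the window of the gene (horizontal axis, with 25 or more in the last bar), in replicate 1 (left) and replicate 2 (right), with the names of the 9 genes above the bar of their count. Hesx1 stands on the right with 11 and 17 peaks, and the other 8 genes lie between 0 and 7.

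Hesx1 spans 26994416 to 27002329 of chromosome 14 (plus strand) and has 2 annotated start sites, at 26994416 and 27000362. Its window held only single-copy summits, 11 in replicate 1 and 17 in replicate 2, of which 9 in each replicate overlapped a peak of the other. The promoter peak of replicate 2 had 13 tags, a fold enrichment of 3.09 and a −log10 q of 2.43, and its summit lay 66 bp upstream of the first start site. RefSeq places that start at 26994419 from a predicted transcript. Its curated transcript starts at 27000362, where neither replicate had a peak. The next summit upstream was found in both replicates, 1.91 kb from the TSS with 11 tags in replicate 1 and 1.84 kb from it with 18 tags in replicate 2.

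Between Hesx1 and Appl1, 3 intergenic peaks lay close together in both replicates. The peak 18.8 kb upstream had 18 tags in replicate 1 and 27 in replicate 2, with a mean −log10 q of 9.36 ± 4.44 (SD, n = 2). The next, at 17.8 and 17.9 kb, had 15 and 28 tags and a mean −log10 q of 8.77 ± 6.55 (SD, n = 2). The last, 14.4 kb upstream, had 17 and 26 tags and a mean −log10 q of 8.60 ± 4.38 (SD, n = 2). All 3 were higher in replicate 2, and none of these differences passed the test between replicates. On the other side of the gene, 3953 and 3895 bp past its end, a peak had 24 and 35 tags. It lay 5.92 and 5.86 kb from the second start site, at 27000362, from which all downstream distances were taken. Its mean −log10 q of 15.6 ± 6.29 (SD, n = 2) was the highest of the Hesx1 peaks outside promoters of other genes. A peak with 28 tags lay 29.6 kb downstream in replicate 2 only, and replicate 1 had a separate peak with 16 tags 31.0 kb downstream.

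Apart from the Hesx1 promoter peak of replicate 2, the promoter peaks in the Hesx1 window belonged to its neighbours on either side. That of Appl1, which encodes an endosomal adaptor protein, had 21 tags in replicate 1 and 50 in replicate 2. That of Il17rd, which encodes an inhibitor of FGF signalling, had 24 and 34 tags. The body of Il17rd held 3 further summits in replicate 1 and 4 in replicate 2. Those 42.1 and 56.0 kb from the second Hesx1 start site overlapped between replicates.

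Tbx19, which encodes the T-box factor of corticotropes and melanotropes, spans 165137855 to 165160773 of chromosome 1 (minus strand). It has 4 annotated start sites, at 165149379, 165149694, 165153726 and 165160773. Downstream distances were taken from 165149379, which lies within the gene and nearest to the 3′ end. The 7 peaks of Tbx19 in each replicate were single-copy, and none lay within the gene. The highest of them outside promoters of other genes formed a pair in intergenic DNA beyond the 3′ end. The summit 106 kb downstream had 19 tags in replicate 1 and 37 in replicate 2 (mean −log10 q 14.5 ± 10.6, SD, n = 2), and that 103 kb downstream had 18 and 40 tags (15.7 ± 13.4, SD, n = 2). They lay 94351 and 91053 bp past the end of the gene in replicate 1, near the edge of the window, and fall outside a window of 50 kb. Nearest to the gene, replicate 1 had a summit of 14 tags, 16.7 kb from the start site at 165149379 and 5186 bp past the end of the gene. This summit had no counterpart in replicate 2. At the promoter of Tiprl, a regulator of TOR signalling, the highest summit had 22 and 40 tags, and at that of Sft2d2, a gene of vesicle transport, 17 and 21.

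Pou1f1 spans 65520511 to 65535005 of chromosome 16 (plus strand). Its window held 2 peaks in replicate 1 and 3 in replicate 2, and outside promoters of other genes none of them was single-copy. The highest summit, 88.2 kb upstream, had 39 tags in replicate 1 and 80 in replicate 2. Its −log10 q was 26.1 and 73.8. Its central 50 bp occurred at 40 and 27 places of the genome, and 100% of the 201 bp around it was repeat sequence. It lay 154 and 160 bp from the start of the annotated miRNA gene Gm23659. A read of these 50 bp alone matches more than 1 place. Whether the rest of a fragment allowed it to be placed, and whether this DNA or another copy gave the tags, was not tested. The other peak found in both replicates was at the promoter of Chmp2b, which encodes a subunit of the ESCRT-III complex, with 12 and 31 tags. Replicate 2 alone had 1 more peak, 70.1 kb upstream, of 12 tags at a summit with 2 copies.

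Neurod1, a basic helix-loop-helix factor, spans 79452521 to 79456751 of chromosome 2 (minus strand) and lies within the annotated span of Cerkl. The 2 summits within the gene in replicate 2, 2.24 and 2.62 kb from the TSS, had 16 and 13 tags, and replicate 1 had none there. A summit at the promoter of Cerkl, a ceramide kinase-like gene, was present in both replicates with 22 and 20 tags. In the body of Cerkl, the summits 57.1 and 46.0 kb downstream had 14 tags each in replicate 1, and their counterparts 20 and 23 in replicate 2.

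Among the hormone genes, Pomc (chromosome 12, 3954951 to 3960642, plus strand), the precursor gene of corticotropin and melanotropins, had no peak in its window in replicate 1. In replicate 2 it had 3, of which none overlapped a peak of replicate 1. The highest had 25 tags and lay at the promoter of Efr3b, which encodes a membrane scaffold for a phosphatidylinositol kinase, and the others had 14 tags in the body of Dnmt3a and 17 tags in that of Efr3b.

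Gh, the growth hormone gene, spans 106300271 to 106301865 of chromosome 11 (minus strand) and lies among 11 other protein-coding genes with a TSS in its window. Of these, 3 had a promoter peak in replicate 1 and 5 in replicate 2. The highest was shared by Ccdc47 and Ddx42, which encode a protein of the endoplasmic reticulum and an RNA helicase, with 27 and 28 tags. The peaks nearest to Gh lay 5.76 and 5.86 kb downstream with 19 and 16 tags, in sequence that was 100% repeat. The summit of replicate 1 was single-copy and that of replicate 2, 99 bp away, occurred at 203 places.

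Prl, the prolactin gene, spans 27057570 to 27065205 of chromosome 13 (plus strand) and had 5 peaks in replicate 1 and 3 in replicate 2. All were multi-copy, with 7 to 4684 places in the genome, and lay in sequence that was 100% repeat. They had 11 to 15 tags in replicate 1 and 15 to 17 in replicate 2. No peak was found on the upstream side. The neighbouring genes Prl3d1, Prl3d2 and Prl3d3, placental relatives of Prl, had no promoter peak either.

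Tshb encodes the β subunit of thyrotropin and spans 102775465 to 102782718 of chromosome 3 (minus strand), within the span of the tetraspanin gene Tspan2 on the other strand. The summit 27.6 kb downstream, in the body of Tspan2, was the only single-copy peak of the window in both replicates, with 10 tags in replicate 1, the lowest of any listed peak, and 26 in replicate 2. A multi-copy peak at the promoter of Sycp1, a gene of the synaptonemal complex, had 15 and 17 tags. The other 2 peaks of replicate 1 were multi-copy and the other 4 of replicate 2 single-copy, and they did not overlap.

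Ghrhr, which encodes the receptor for growth hormone-releasing hormone on somatotropes, spans 55376295 to 55388530 of chromosome 6 (plus strand). All its peaks were single-copy and lay downstream of its TSS, 4 in replicate 1 and 6 in replicate 2, and each of the 4 had a counterpart. The nearest lay 401 and 438 bp past the end of the gene with 13 and 26 tags (mean −log10 q 7.29 ± 6.24, SD, n = 2). The highest was at the promoter of the lincRNA 6430584L05Rik, with 39 tags in replicate 1 and 101 in replicate 2 and a mean fold enrichment of 16.2 ± 8.92 (SD, n = 2). A peak in the body of that lincRNA had 24 and 22 tags. Adcyap1r1, which encodes the PACAP receptor, had a promoter peak of 13 tags in replicate 2 only.

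Over the 9 windows, 28 neighbouring protein-coding genes had a TSS in the window, and 10 of them had a promoter peak there in replicate 1 and 14 in replicate 2, with 10 in both. Of all protein-coding genes, 32.3%, 44.4% and 30.8% had one in replicate 1, in replicate 2 and in both, so the counts at the neighbours lay near the background. Of these neighbours 10 were CpG-poor.

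The highest peak of each gene outside promoters of other genes was compared with the Lhb promoter peak of the same replicate, which had 49 tags in replicate 1 and 70 in replicate 2. In replicate 1 the lowest of these peaks had 13 tags, at Tshb, and the highest 24, at Ghrhr and Hesx1. In replicate 2 they had 12 tags at Pou1f1 up to 40 at Tbx19. None of these reached the Lhb value in its replicate, and all 7 genes with such a peak in replicate 1 and all 9 in replicate 2 were below it by an exact binomial test on the tags (two-sided, Benjamini-Hochberg adjustment over all protein-coding genes with such a peak). The highest adjusted p of this exact test was 0.006 in replicate 1, for Ghrhr and Hesx1, whose 24 tags were 49.0% of the Lhb value. In replicate 2 it was 0.00655 by the same exact test, for Tbx19 at 57.1%. That all were below held only with the peaks at the starts of the noncoding genes Gm23659 (a miRNA) and 6430584L05Rik (a lincRNA) set aside as promoters of other genes. These had 39 tags each in replicate 1 and 80 and 101 tags in replicate 2, which is above the Lhb value there. With only protein-coding transcripts taken as promoters, these peaks counted for Pou1f1 and Ghrhr, and 6 of 8 genes in replicate 1 and 7 of 9 in replicate 2 were below Lhb. With RefSeq transcripts 7 of 8 and 8 of 9 were below it. This was the common state, however, as 87.7% and 87.8% of all protein-coding genes with such a peak were below Lhb in the same test, so the count does not set the 9 genes apart. The test covers counting error only.

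**Figure D4:**
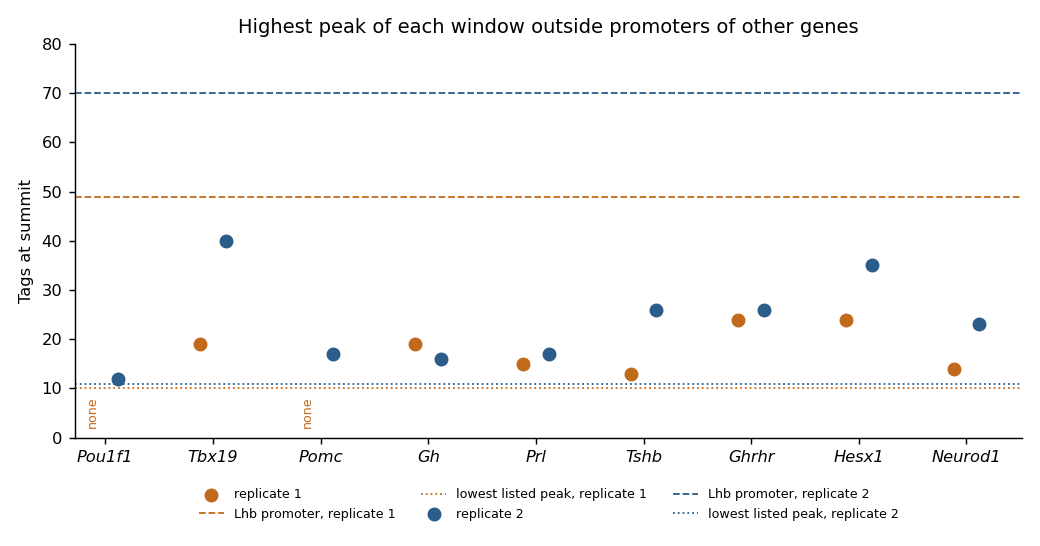
Tags at the highest summit outside promoters of other genes (vertical axis) for each of the 9 genes in replicate 1 (orange) and replicate 2 (blue), with the Lhb promoter summit (dashed lines) and the lowest listed summit (dotted lines) of each replicate. All points lie below the dashed line of their replicate, with the peaks at Gm23659 and 6430584L05Rik not drawn, and Pou1f1 and Pomc have no such peak in replicate 1.

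Between replicates, 32 of the 44 peaks of replicate 1 (72.7%) and 31 of the 57 of replicate 2 (54.4%) shared 1 bp or more with a peak of the other list. The shares over all peaks were 59.1% and 51.6%. The 2 sets differ in copy number, as single-copy summits were more frequent in the windows than over all peaks. The share over all single-copy peaks alone was not computed. Each of the 32 peaks of replicate 1 was paired with its overlapping peak, and both Tiprl promoter peaks, like a pair of Prl peaks, met the same peak of replicate 2. Tags were higher in replicate 2 in 29 pairs and in replicate 1 in 3. The summits of a pair lay a median of 62 bp apart. In an exact binomial test (two-sided) of the tags of each pair against the ratio of the backgrounds, added after seeing the data and adjusted over all 34568 pairs of overlapping peaks, 1 of the 32 pairs differed. This was the 6430584L05Rik promoter with 39 and 101 tags (adjusted p = 0.00195, exact binomial test). Of all pairs, 1.11% differed. The next lowest was a Tiprl pair with 13 and 40 tags and summits 484 bp apart (adjusted p = 0.0896, exact binomial test). The other Tiprl peak of replicate 1, 12 bp from the same summit of replicate 2, had 22 tags (adjusted p = 0.883, exact binomial test). The pair 88.2 kb upstream of Pou1f1 gave an adjusted p of 0.146 in the same exact test. With −log10 q of at least 10, 6 peaks were left in replicate 1 and 17 in replicate 2.

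**Figure D5:**
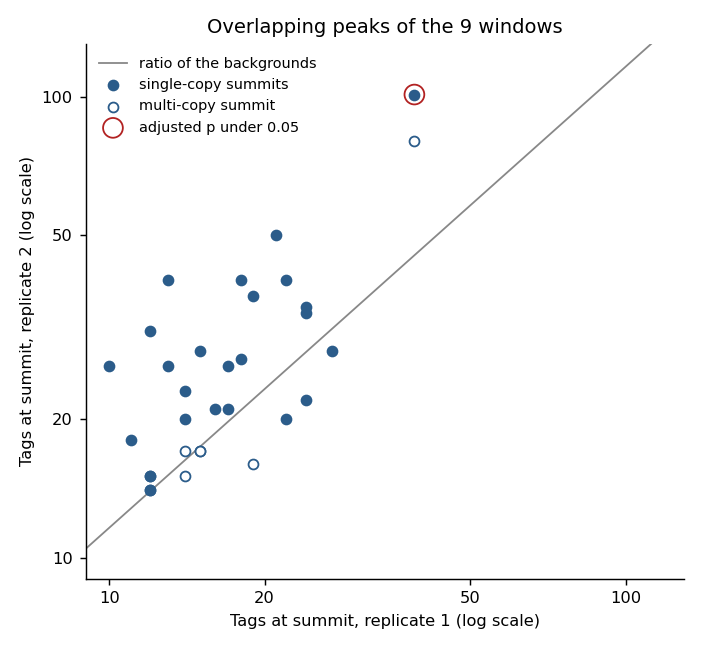
Tags at the summit in replicate 1 (horizontal axis) and replicate 2 (vertical axis), both on log scales, for the 32 pairs of overlapping peaks in the 9 windows, with the ratio of the backgrounds as a line. Most points lie above the line, 29 pairs have more tags in replicate 2, and the circled pair with 39 and 101 tags is the 1 that differed.

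Exact matches to 11 motifs were counted within 100 bp of the summits on both strands, for the factors of these lineages, of gonadotropes and of the response to GnRH. For POU1F1 (ATGNATA), a match was found at 1 of 44 summits of replicate 1 and at 2 of 57 of replicate 2 in the 9 windows, against 7.71% and 7.15% of all summits. Among single-copy summits of the windows it was found at 0 of 32 and 2 of 47, against 5.93% and 4.86% of all single-copy summits. The motif of SF1 (CAAGGTCA), the gonadotrope factor encoded by Nr5a1, was found at 2 and 4 summits, against 1.39% and 2.06% of all summits. All of these lay at single-copy summits, which numbered 32 and 47 in the windows, and over all single-copy summits the share was higher, at 3.32% and 4.47%. The NEUROD E-box (CAGATG) was found at 11 and 12 summits, with 18.9% and 18.5% over all summits. Of these summits 7 and 11 were single-copy, with 14.2% and 14.1% over all single-copy summits. AP1 (TGANTCA) was found at 3 and 7, with 4.70% and 4.90% over all. Matches for GATA factors, searched as AGATAA, were found at 7 and 7, with 9.46% and 9.62% over all, and PITX at 2 and 3, with 5.33% and 5.82% over all, the latter counted as TAATCC. LIM homeodomain matches (TAATTA) were found at 4 and 2 summits, with 2.44% and 2.30% over all. The CRE palindrome (TGACGTCA) was found at 1 summit in each replicate, at the Tiprl promoter, with 0.533% and 0.653% over all. The T-box motif (AGGTGTGA) was found at 0 and 1, with 0.417% and 0.495% over all. No summit of the 9 windows matched EGR1 (GCGNGGGCG), which 0.723% and 1.09% of all summits did, or CTCF, which 0.379% and 0.565% did. Over all single-copy summits alone the shares were 2.11% and 2.72% for EGR1, 0.965% and 1.28% for CTCF and 1.2% and 1.32% for CRE. Single-copy summits of the windows matched AP1 at 2 and 5, GATA at 4 and 3 and PITX at 2 and 2. They matched LIM homeodomain at 3 and 2 and T-box at 0 and 1. Over all single-copy summits these shares were 5.82% and 5.97% for AP1, 9.26% and 9.61% for GATA and 5.77% and 6.61% for PITX. For LIM homeodomain they were 2.63% and 2.47%, and for T-box 0.611% and 0.655%. At such counts 1 summit more or less changes the share, and a match does not show that a factor was bound.

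In the printed sequences, the SF1 match 18.8 kb upstream of Hesx1 begins at 26975620 and lies 4 bp from the summit of replicate 2. The summit of the overlapping peak of replicate 1 also had it within 100 bp. The sequence 17.9 kb upstream holds, in order, matches to POU1F1, GATA and AP1, 60, 34 and 8 bp from the summit of replicate 2, while the summit of replicate 1, 150 bp away, had no match to any of the 11 motifs. Beyond the end of Ghrhr, a pair of E-boxes lay 82 and 4 bp from the summit and a T-box match 80 bp from it. The AP1 match 103 kb downstream of Tbx19 lay 10 bp from the summit, and the summit of replicate 1 had it as well. No match was found in the other Hesx1 sequences, at Tbx19 106 kb downstream or at Tshb. The matches did not overlap each other.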

How the data were processed

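ATAC-seq libraries of 2 replicates under 1 condition were used. The authors aligned reads to GRCm38 with Bowtie2, discarded duplicates and ran MACS2 on each replicate alone, without a model, with an extension of 200 bp and the preset "-g dm" (versions not given in the sources used here, and no input library is named). The deposited columns are a score, a fold (the ratio of the summit to the background), and −log10 of a p-value and a q-value, with start, end and summit position. The score is 10 times −log10 q cut to a whole number. The lists give no read totals. The preset, which stands for the fly genome, enters the background and therefore the fold and q of every peak. Tests used tags, within a replicate or between replicates against the ratio of the backgrounds. Means of fold and −log10 q over the replicates are descriptions and were not tested.

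Tags at each summit were solved from fold and p with a single background per replicate, which recomputed −log10 p within 0.000511. Peaks were placed on GENCODE vM21 genes, and at promoters within 1 kb of a TSS first, then in the gene's own introns and exons, in other genes and in intergenic DNA. The genome sequence came from RefSeq GRCm38. Peaks were shared at an overlap of at least 1 bp. Exact binomial tests with Benjamini-Hochberg adjustment (threshold 0.05) were used, and genes and peaks are not replicates. The tools were pandas 2.3.3, numpy 2.4.6, scipy 1.17.1, matplotlib 3.10.9 and numba 0.67.0 under Python 3.11.15, and the steps were tested on simulated data in 7 checks. RefSeq promoter sequences of these genes were not used. The adjustment against Lhb was planned over the 9 genes and made over all genes.

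The 9 genes, the lists and the motifs were chosen with earlier results of these data known. The 9 genes, 12 further lineage genes and 9 gonadotrope genes were named throughout. Of the further lineage genes and of the gonadotrope genes, 1 planned gene each is not reported here. Neighbours were to be named where a promoter peak in a window had −log10 q of at least 10. Other neighbours were named after their values were seen, to say where a peak lies. Alternatives concerned q, copy number, window, promoter width, annotation, overlap and either replicate. Expression and read coverage were not analysed here.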

Additional observations from a re-analysis of the deposited data

How the results depend on the processing

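No paired analysis was possible because the replicates belong to a single condition. Values here are means over both replicates. With −log10 q of at least 5 the genes with a promoter peak fell from 0.5 to 0, the peaks in the windows from 50.5 to 21, and the genes with a peak outside other promoters, like those below the Lhb promoter, from 8 to 4.5. With at least 10 these values were 0, 11.5, 3 and 3, as fewer peaks remain by construction. A window of 50 kb left 33 peaks, and a promoter of 2 kb gave a promoter peak for 1 gene in each replicate, Hesx1, through the peak 1.91 and 1.84 kb upstream. The share of overlapping peaks fell from 63.6% to 48.3% when 50% of both peaks had to overlap and to 50.3% with summits within 100 bp. Without 1 replicate, the genes with a promoter peak ranged from 0 to 1, the peaks from 44 to 57, the shared peaks from 54.4% to 72.7%, and both the genes below Lhb and those with a peak outside other promoters from 7 to 9. Single-copy summits left all these values within 1.5 times those reported. So did a promoter of 500 bp, protein-coding transcripts and RefSeq transcripts for the genes with a promoter peak, with a peak outside other promoters and below Lhb, the values recomputed there. However, 6.5 of 8.5 genes with such a peak were below Lhb with protein-coding transcripts and 7.5 of 8.5 with RefSeq transcripts, against 8 of 8 as reported. The pairs that differed between replicates numbered 1 as reported and 2 with single-copy summits alone. The number of tags, 10 or 11 at the lowest summit, limits which weak peaks could be listed.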
